A study of Mus musculus with 9 samples.

Results

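The comparison described here sets CD8+ T cells exposed for 4 h to 500 nM of a cytokine, either interleukin-2 (IL-2) or its relative interleukin-15 (IL-15), against cells given none. It uses 3 of the 9 RNA-sequencing libraries of the study, 1 for IL-2, 1 for IL-15 and 1 untreated, and a change is called only where both cytokines moved a gene in the same direction. The T cells came from the spleens of C57BL/6 mice, a common inbred strain, that were female and 6 weeks old. The other 6 libraries hold IL-2 or IL-15 at 1 nM for 4 h, at 1 nM for 24 h and at 500 nM for 24 h, 1 library for each. Each library was made from RNA of 3 identically treated samples pooled before cDNA synthesis, so the spread between animals or cultures is averaged out and cannot be read. The untreated library carries no time label. Effects of the cytokine and of time in culture therefore cannot be told apart in a comparison with it. The study asked how IL-2 and IL-15 come to differ in function, as its title states. The 500 nM, 4 h arm gives the early response at the higher of the concentrations used.

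IL-2 and IL-15 are secreted proteins of the same cytokine family that drive growth, survival and killing function of CD8+ T cells. They share the receptor chains encoded by Il2rb and Il2rg, and each has an alpha chain of its own, encoded by Il2ra and Il15ra. Binding activates the kinases JAK1 and JAK3, which phosphorylate STAT5. Phosphorylated STAT5 enters the nucleus and turns on genes with the palindromic TTCNNNGAA element, among them feedback inhibitors such as Cish and the Socs genes. The receptor also signals through PI3K and AKT, which hold the transcription factor FOXO1 out of the nucleus and favour growth. Interferon-stimulated genes, which recur below, answer to interferons through other factors of the STAT family and are best known for antiviral defence.

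The untreated, IL-2 and IL-15 libraries held 32213676, 33801754 and 35524598 counts over genes (27158143 to 48799962 over the 9 libraries). The 10 highest genes took 13.9%, 12.0% and 10.7% of the counts. Levels are given as CPM, counts scaled to library size with trimmed-mean (TMM) factors, in the order untreated, IL-2, IL-15. A change is a log2 fold change, 500 nM at 4 h over untreated, fitted across all 9 libraries with edgeR's quasi-likelihood test and given with its standard error. Adjusted p-values below are from that test, Benjamini-Hochberg adjusted over the 13479 genes tested. "Rose" and "fell" are used for genes with an adjusted p under 0.05 and the same direction with both cytokines. The untreated condition has 1 library, assumed to vary like the treated ones. The model fits 1 common difference between IL-15 and IL-2. What this leaves between the single pooled IL-2 and IL-15 libraries of the same dose and time is the spread behind the p-values. That spread mixes noise with cytokine differences that vary by dose or time, and it holds no spread between replicates.

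The label was checked against defining genes. Cd8a, which encodes the CD8 alpha chain, was at 903 CPM in the untreated library, 744 CPM with IL-2 and 786 CPM with IL-15 and did not pass the test (log2 change -0.24 ± 0.20, adjusted p = 0.48). Cd4 stood at 5.62, 2.85 and 1.43 CPM. Markers of other spleen cells were present as well, most of all in the untreated library. The 16 measured monocyte, macrophage and neutrophil markers summed to 2148 CPM untreated, 233 CPM with IL-2 and 164 CPM with IL-15, that is 10.9% and 7.62% of the untreated sum. S100a8, S100a9 and Mpo, defining genes of neutrophils, were at 0 or near it in all 3 libraries. Of the 14 of these markers that were tested, 8 fell and none rose, against 8.47% and 7.92% of all tested genes. The macrophage complement gene C1qc was at 837 CPM in the untreated library, 60.7 CPM with IL-2 and 37.1 CPM with IL-15 (log2 change -4.08 ± 0.33, adjusted p = 3.2e-05), and Csf1r, the receptor that macrophages need to survive, was at 338 CPM in the untreated library, 23.97 CPM with IL-2 and 14.8 CPM with IL-15 (log2 change -4.14 ± 0.42). At 1 nM for 4 h the same sum was 316 CPM with IL-2 and 314 CPM with IL-15, so the untreated library stood apart from all 4 libraries of treated cells at 4 h. At 24 h this sum was 894 and 1091 CPM with 1 nM IL-2 and IL-15, and 57.8 and 40.3 CPM with 500 nM. In RNA from a mixed sample, fewer cells of a type and less RNA per cell cannot be told apart.

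The 12 B cell markers summed to 770.5, 332 and 377 CPM, and 7 of 12 fell (4 without the IL-15 library), among them Cd79b (169.9 CPM untreated, 74.9 and 88.5 CPM) and Spib (67.1 CPM untreated, 17.6 and 22.6 CPM). The 6 natural killer markers summed to 186, 33.4 and 25.2 CPM. Nearly all of that sum was Tyrobp and Fcer1g, adaptor genes that macrophages express too, and the natural killer gene Ncr1 had 0 counts in all 3 libraries. The 7 dendritic cell markers summed to 116, 29.3 and 37.3 CPM, with 3 of 7 lower, and the 7 erythroid markers to 144, 70.3 and 61.3 CPM, with 2 of 5 tested lower (Hbb-b1 and Hbb-b2, which share reads). MHC class II genes summed to 2809, 2306 and 2849.9 CPM, and 2 of 7 fell, among them Ciita, their master activator (42.9 CPM untreated, 8.21 and 16.2 CPM). The share of all tested genes that fell, beside which these marker counts stand, was 8.47%. Sums over the platelet and the stromal and endothelial markers were under 110 CPM in each library and 0 of their 2 and 4 tested members passed the test (also 0 at an unadjusted p under 0.05 and with DESeq2, and 1 stromal gene with limma-voom). The part of these other cells in the gene changes that follow was not tested.

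**Figure D1:**
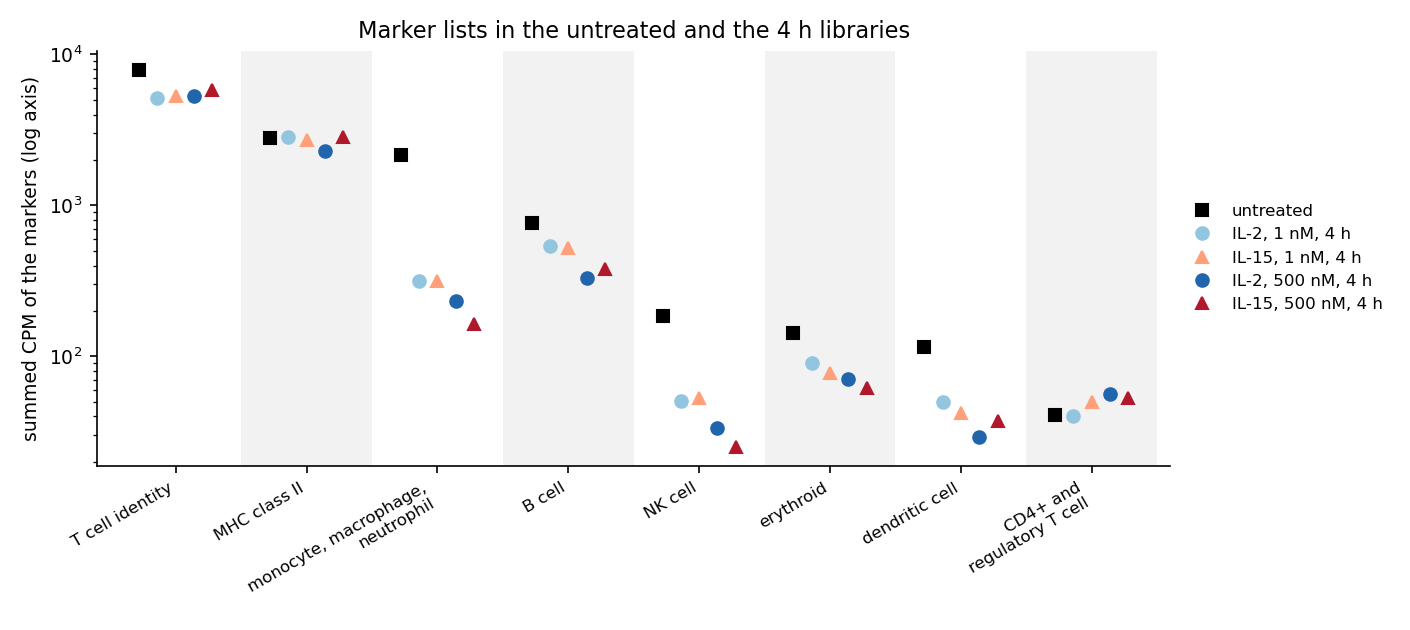
Summed CPM of 8 marker lists (log axis) in the untreated library and the 4 libraries taken at 4 h, 1 point per library. The monocyte, macrophage and neutrophil sum was 10.9% (IL-2) and 7.62% (IL-15) of untreated at 500 nM, while the T cell identity sum stayed within a narrower range.

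Of 13479 genes tested, 1068 rose (7.92%) and 1141 fell (8.47%), 2209 in all (16.4%), with a median absolute log2 change of 1.52 among them and a median of 0.02 over all tested genes. By size alone, with no test, 1279 of 12081 genes with enough reads were at least 2-fold higher with both cytokines (10.6%) and 1499 were at least 2-fold lower (12.4%). Both criteria were met by 801 genes that rose and 768 that fell. At least 8-fold with both cytokines were 168 of the risen genes and 124 of the fallen ones. The shares of all tested genes, 7.92% and 8.47%, are the background against which the marker lists above and the gene lists below are read. Those lists and their members were chosen with earlier results of these data known, so a count above the background is a description and not a test. The move was larger with IL-15 than with IL-2 in 782 of the 1068 risen genes (73.2%) and 805 of the 1141 fallen ones (70.6%), against 60.5% of all tested genes. The median absolute log2 change of risen genes was 1.48 with IL-2 and 1.71 with IL-15. With 1 library per cytokine that difference has no test. With the IL-15 library left out, 529 genes were called higher and 541 lower, 1070 in all. Of the 148 called genes named in the text, 46 then missed the threshold, and 25 did so without the IL-2 library. Among the losses without IL-15 that are not repeated below were Bcl2l11, Cd160, Cdk6, Eif5a, Fos, Gzma, Gzmm, Hbb-b1, Hbb-b2, Itgae, Pik3ip1, Psmb8, Sqle and Wars, with adjusted p-values of 0.050 to 0.14; Gzmm, Hbb-b1, Hbb-b2 and Tk1 were among those without IL-2. Fallen genes had a median level of 64.5 CPM in the untreated library, risen genes 20.4 CPM and all tested genes 14.3 CPM.

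**Figure D2:**
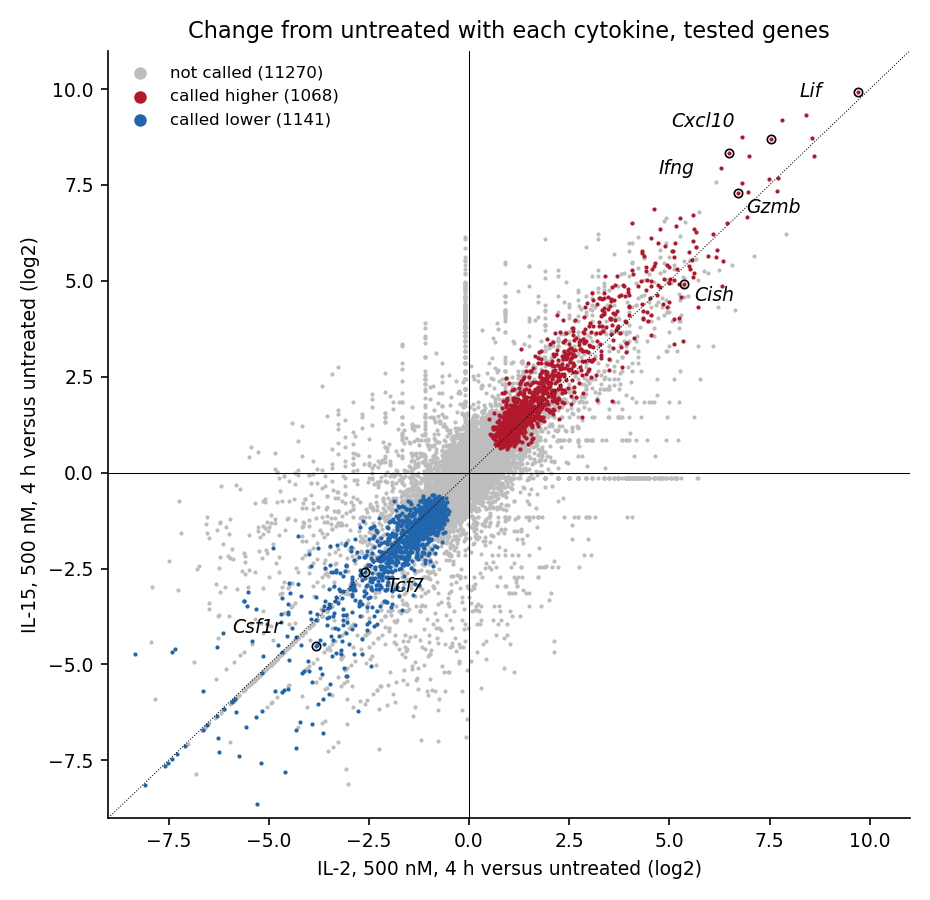
Log2 change from untreated with IL-2 (horizontal) and with IL-15 (vertical), 500 nM for 4 h, 1 point per tested gene, computed on CPM with an offset of 1 count; red points rose, blue points fell and grey points did not pass. Called genes lie where both changes have the same sign, as the rule for a call requires. Lif lies near 10 on both axes and Csf1r near -4. The straight rows of grey points just off each axis are genes with the same very low count untreated and with 1 of the cytokines. That count is mostly 0.

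Most of the listed STAT5 target and cytokine feedback genes rose. Of 19 tested, 17 rose and none fell, with a median log2 change of 1.62 against 0.02 over all tested genes. The feedback inhibitor Cish, which binds the activated receptor, was at 39.6 CPM in the untreated library, 1626 CPM with IL-2 and 1192 CPM with IL-15 (log2 change 5.14 ± 0.73, adjusted p = 0.00059). Socs1, an inhibitor of JAK kinases, was at 19.2 CPM untreated, 146 CPM with IL-2 and 114 CPM with IL-15 (log2 change 2.75 ± 0.26), and Socs3 at 263 CPM untreated, 578 CPM with IL-2 and 497 CPM with IL-15 (log2 change 1.03 ± 0.30, adjusted p = 0.035). Of these inhibitors Cish had the largest change. Socs2 also rose (12.6 CPM untreated, 35.6 and 41.1 CPM). The call of Socs3 was lost without either treated library (adjusted p = 0.062 without IL-15 and 0.12 without IL-2), and that of Socs2 without IL-15 (adjusted p = 0.072).

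Lif, which encodes leukemia inhibitory factor, had 17 counts (0.549 CPM) untreated, 16132 counts (489 CPM) with IL-2 and 19184 counts (559.7 CPM) with IL-15 (log2 change 9.94 ± 0.87, adjusted p = 4.0e-05). The untreated library thus lay near the floor of detection and both treated ones far above it. Osm, the related cytokine oncostatin M, was at 23.7 CPM in the untreated library, 486 CPM with IL-2 and 443 CPM with IL-15 (log2 change 4.29 ± 0.60). Lta, lymphotoxin alpha, was at 46.4 CPM in the untreated library, 2230.4 CPM with IL-2 and 1600.2 CPM with IL-15 (log2 change 5.35 ± 0.73, adjusted p = 0.00048). IL-2 gave the higher level for Osm, Lta and Cish and IL-15 for Lif, without a test of the gap. The survival and growth genes of the list had smaller changes. Bcl2l1, which encodes BCL-XL, was at 31.9 CPM in the untreated library, 85.6 CPM with IL-2 and 108 CPM with IL-15, Pim1, a survival kinase, at 5.33 CPM untreated, 20.03 CPM with IL-2 and 33.4 CPM with IL-15, and Myc, which drives growth, at 457 CPM untreated, 1091 CPM with IL-2 and 1169 CPM with IL-15. Their log2 changes were 1.61 ± 0.33, 2.29 ± 0.41 and 1.30 ± 0.25. Ccnd2, cyclin D2, rose too (593 CPM untreated, 1447 and 1665 CPM). The 2 members that did not pass were Il4ra (log2 change 0.47 ± 0.27) and Ccnd3 (log2 change 0.32 ± 0.24).

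In the RefSeq promoters of GRCm38.p6, taken as 250 bases before to 50 after the start, TTCNNNGAA was found on either strand in 4 of the 14 STAT5-list genes with a promoter there (28.6%). It was found in 12.1% of risen genes, 6.30% of fallen genes, 8.47% of tested genes and 9.55% of all 27025 promoters. Of the lists described below, the interferon list had it in 6 of 25 genes and the amino acid list in 3 of 20. The class I list had it in 1 of 12 genes and the immediate early list in 1 of 21. A share above that of tested genes was thus not particular to the STAT5 list. The stretches upstream of the start that hold it are shown for a cytokine gene and a feedback gene that rose, with the element in capitals and 25 bases on each side where the start allows; a match is a description and not a measured STAT5 site.
Lta (chr17:35205352-35205392, minus strand): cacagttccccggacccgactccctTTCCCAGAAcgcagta
Socs3 (chr11:117969487-117969545, minus strand): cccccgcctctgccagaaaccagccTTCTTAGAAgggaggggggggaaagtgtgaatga

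Genes for receptors of the same cytokines changed too. Il2ra, the alpha chain of the IL-2 receptor, was at 1.65 CPM in the untreated library, 35.9 CPM with IL-2 and 45.5 CPM with IL-15. Its log2 change was 4.70 ± 0.97 (edgeR adjusted p = 0.0061). The shared chains rose as well, Il2rb to 1096 and 1008 CPM from 378 CPM and Il2rg to 371 and 521 CPM from 232 CPM. Il15ra, the IL-15 alpha chain, was at 17.2 CPM untreated, 36.8 CPM with IL-2 and 39.5 CPM with IL-15 and did not pass (log2 change 1.15 ± 0.59, adjusted p = 0.21). The calls of Il2rg and Il6ra were lost without the IL-15 library (adjusted p = 0.12 and 0.20), that of Il2rg also without either 500 nM, 24 h library (adjusted p = 0.053 each), and that of Il2ra with limma-voom (adjusted p = 0.075). Among 25 cytokine receptor genes 8 rose and 1 fell, with a median of 0.50. Il12rb2, the inducible chain of the interleukin-12 receptor, was at 2.29 CPM in the untreated library, 81.5 CPM with IL-2 and 147 CPM with IL-15 (log2 change 5.65 ± 1.00), and Il12rb1 rose as well (21.9 CPM untreated, 84.3 and 112 CPM). Ifngr1, a chain of the interferon gamma receptor, rose (839 CPM untreated, 2559.6 and 2294 CPM). The member that fell was Il6ra (95.7 CPM untreated, 55.1 and 35.6 CPM). Il7r, the receptor for the survival cytokine interleukin-7, was at 146 CPM untreated, 80.02 CPM with IL-2 and 125 CPM with IL-15 and did not pass (adjusted p = 0.32).

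Genes for the signalling proteins rose in part. Of 11 JAK and STAT genes 5 rose and none fell (3 rose without the IL-15 library). Stat2 was at 64.9 CPM in the untreated library, 439 CPM with IL-2 and 611 CPM with IL-15 (log2 change 3.02 ± 0.44, adjusted p = 0.00068) and Stat3 at 208 CPM untreated, 561 CPM with IL-2 and 623 CPM with IL-15 (log2 change 1.51 ± 0.26). Jak2 rose too (30.8 CPM untreated, 56.7 and 71.8 CPM). When the IL-15 library was left out, the call of Jak2 was lost (adjusted p = 0.18). It was lost without any other 500 nM library too (adjusted p = 0.059 to 0.063). The genes of the IL-2 and IL-15 pathway proper did not pass: Stat5a had a log2 change of 0.26 ± 0.23, Stat5b of 0.54 ± 0.24, Jak1 of -0.55 ± 0.24 and Jak3 of -0.05 ± 0.22.

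Genes for secreted effector molecules were among those that rose most. Of 19 tested cytokine and tumour necrosis factor family ligands, 10 rose and 1 fell, with a median log2 change of 2.05. Ifng, interferon gamma, had 31 counts (1.001 CPM) untreated, 3074 counts (93.1 CPM) with IL-2 and 11336 counts (331 CPM) with IL-15 (log2 change 8.08 ± 1.34, adjusted p = 0.0015). The IL-15 library stood well above the IL-2 library, and both far above untreated, though with limma-voom the call was lost (adjusted p = 0.16). Fasl, the death ligand, was at 0.613 CPM in the untreated library, 31.7 CPM with IL-2 and 53.2 CPM with IL-15 (log2 change 6.08 ± 0.82), and Csf1, a macrophage growth factor, at 1.68 CPM untreated, 37.2 CPM with IL-2 and 55.7 CPM with IL-15 (log2 change 4.76 ± 0.84). Il16, a chemoattractant precursor and the member that fell, went the other way at 849 CPM untreated, 322 CPM with IL-2 and 322 CPM with IL-15. Il2 itself stayed near the floor, at 19, 20 and 10 counts. Among 17 chemokines and chemokine receptors, 3 rose (Cxcl10, Ccl3 and Ccl4) and 1 fell (Ccr9). Cxcl10, which attracts activated T cells and answers to interferon, was at 3.002 CPM in the untreated library, 563 CPM with IL-2 and 1261 CPM with IL-15 (log2 change 8.29 ± 1.15, adjusted p = 0.00051). Ccl4, an inflammatory chemokine, was at 6.07 CPM untreated, 92.2 CPM with IL-2 and 93.02 CPM with IL-15 (log2 change 3.94 ± 0.37). The call of Ccl3 was lost with limma-voom (adjusted p = 0.12). Ccr9, a gut-homing receptor, was at 70.4 CPM untreated, 11.97 CPM with IL-2 and 6.19 CPM with IL-15 (log2 change -2.96 ± 0.48).

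Among 19 tested cytotoxic granule and killing genes, 7 rose and 3 fell, while without either treated library 1 fell. Gzmb, granzyme B, was at 8.88 CPM in the untreated library, 934 CPM with IL-2 and 1409 CPM with IL-15 (log2 change 7.11 ± 1.20, adjusted p = 0.0017), and Gzmc had 0 counts untreated, 362 with IL-2 and 706 with IL-15. Set against a floor of 3 counts in the untreated library, Gzmc was at least 113-fold higher with IL-2 and at least 213-fold higher with IL-15. Gzma (2.55 CPM untreated, 10.9 and 16.3 CPM) and Serpinb9, which protects the killer cell from granzyme B, (17.4 CPM untreated, 57.1 and 82.3 CPM) rose too. Granzyme genes near Gzmc are close copies, and how reads were divided among them is not given in the sources used here. Prf1, which encodes the pore protein perforin, went down, at 133 CPM in the untreated library, 84.4 CPM with IL-2 and 78.2 CPM with IL-15 (log2 change -0.71 ± 0.22, adjusted p = 0.043), a call that was lost without any 1 of the 4 libraries at 500 nM (adjusted p = 0.058 to 0.20) and with total-count scaling (adjusted p = 0.055). The other members that fell were Ctsd, a lysosomal protease also abundant in macrophages (1166 CPM untreated, 153 and 153 CPM), and Gzmm (50.3 CPM untreated, 17.8 and 23.6 CPM).

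**Figure D3:**
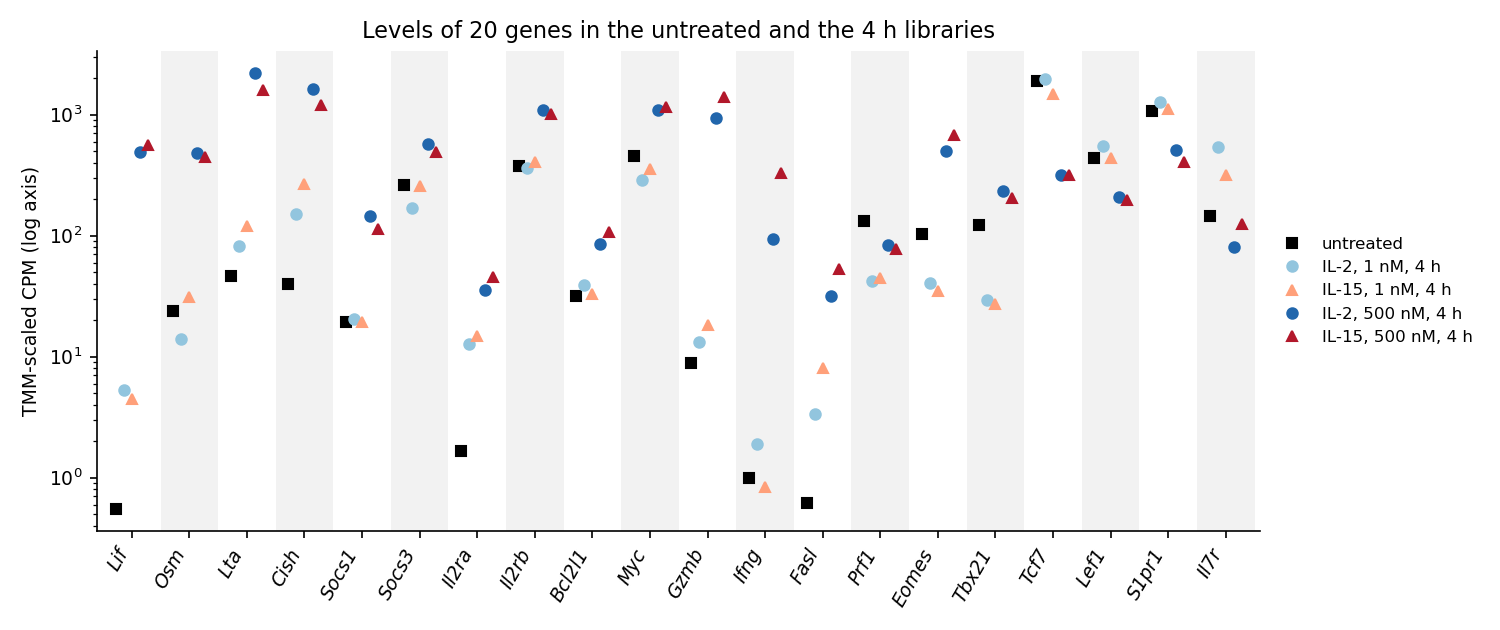
Level of 20 genes in TMM-scaled CPM (log axis) in the untreated library (black squares), the 1 nM libraries (pale) and the 500 nM libraries (dark), all treated ones at 4 h; circles are IL-2 and triangles IL-15, 1 library each. For Lif, Gzmb, Ifng and Fasl both dark points lie far above the black square, while for Tcf7, Lef1 and S1pr1 they lie well below it and the pale points lie nearer to it.

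The interferon-stimulated genes rose without exception among those tested. Of 35 tested, 35 rose, against 7.92% of all tested genes, with a median log2 change of 3.81 and a range of 1.41 to 8.29. The list was chosen with earlier results of these data known, so this count is a description and not a test. With limma-voom 34 rose and without the IL-15 library 32. Their summed level was 3166 CPM untreated, 24527 CPM with IL-2 and 36866 CPM with IL-15. The antiviral gene Rsad2, which encodes viperin, was at 17.1 CPM in the untreated library, 612 CPM with IL-2 and 1465 CPM with IL-15 (log2 change 5.85 ± 0.48, adjusted p = 3.2e-05). Ifit1, which binds foreign RNA, was at 28.3 CPM untreated, 845 CPM with IL-2 and 1689 CPM with IL-15 (log2 change 5.45 ± 0.50), and Isg15, a ubiquitin-like modifier, at 2.68 CPM untreated, 70.7 CPM with IL-2 and 173 CPM with IL-15 (log2 change 5.46 ± 0.63). The GTPase genes Mx2 (1.81 CPM untreated, 70.6 and 182 CPM) and Iigp1 (0.387 CPM untreated, 53.6 and 127 CPM) rose from a few CPM or less. As the rule for a rise requires, all these genes were lowest in the untreated library, and they were highest with IL-15. The level with IL-15 was above that with IL-2 in 34 of 35 members, by a median of 0.93 on the log2 scale against -0.03 over all tested genes. Ifng, itself an interferon, had the same order. With 1 library for each cytokine this gap was not tested. Interferon-stimulated genes can be turned on in most cell types, and the cells that held these transcripts are not identified by the data. The summed macrophage and neutrophil markers were at 2148, 233 and 164 CPM, and the part of such cells in these rises was not tested.

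The interferon response element, searched as TTTC, any 2 bases, then TTTC on either strand, was found in 15 of the 25 interferon-list genes with a RefSeq promoter window. It was found in 9.07% of risen genes, 2.97% of fallen genes, 3.77% of tested genes and 3.99% of all promoters. Stretches upstream of the start in GRCm38.p6 are shown for 4 of the list's genes named above or under the chemokines, with the element in capitals; where it reads GAAA it lies on the opposite strand.
Cxcl10 (chr5:92349068-92349127, minus strand): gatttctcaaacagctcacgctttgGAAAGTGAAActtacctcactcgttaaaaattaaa
Rsad2 (chr12:26456538-26456597, minus strand): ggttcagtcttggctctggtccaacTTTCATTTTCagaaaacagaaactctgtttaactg
Ifit1 (chr19:34640760-34640838, plus strand): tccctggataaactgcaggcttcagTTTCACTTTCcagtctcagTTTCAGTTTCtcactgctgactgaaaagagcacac
Isg15 (chr4:156200850-156200921, minus strand): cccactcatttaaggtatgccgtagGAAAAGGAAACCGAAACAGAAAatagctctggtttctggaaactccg

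In Ifit1 the element occurred 2 times within the stretch shown, and in Isg15 the 3 matches overlap into a single run. The 2 elements were searched separately and their matches may overlap. Matches to the element are letters in a window and not evidence of a bound factor. Genes of antigen presentation on MHC class I, many of which answer to interferon, rose in part. Of 14 tested, 6 rose and none fell, with a median of 1.00. Nlrc5, the activator of the class I genes, was at 216 CPM in the untreated library, 859 CPM with IL-2 and 1046 CPM with IL-15 (log2 change 2.14 ± 0.30), the peptide transporter gene Tap1 at 581 CPM untreated, 1339 CPM with IL-2 and 1497 CPM with IL-15 and the immunoproteasome gene Psmb8 at 1328 CPM untreated, 2559.8 CPM with IL-2 and 3845 CPM with IL-15. B2m, the light chain of class I, went from 2481 to 4841 and 5603 CPM (log2 change 1.08 ± 0.27, adjusted p = 0.017). Without the IL-15 library 2 of the 14 rose, and B2m was not among them (adjusted p = 0.11). With cytokine by dose and cytokine by time terms in the model 11 rose, and under every other setting 6 to 9.

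**Figure D4:**
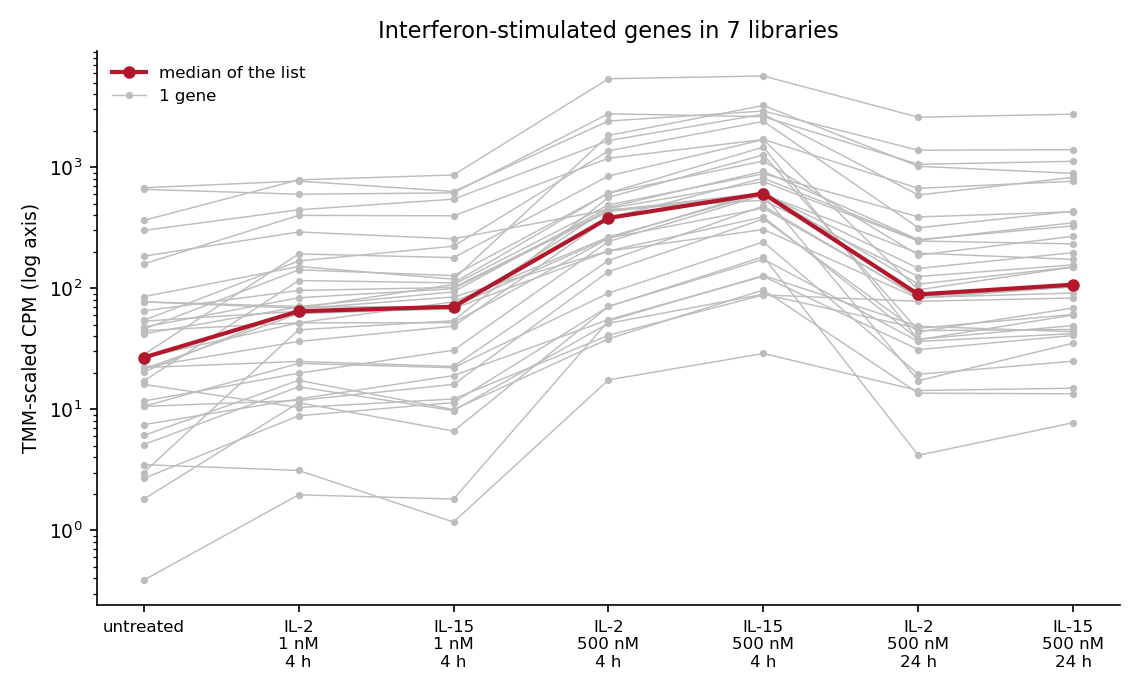
Level of the 35 interferon-stimulated genes in TMM-scaled CPM (log axis) in 7 libraries; each grey line is 1 gene and the red line the median of the list. Levels were highest in the 500 nM, 4 h libraries and lower in the 500 nM, 24 h libraries, and 27 of the 35 fell between those times.

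Genes of the NF-kB system and the immediate early genes rose in part. NF-kB is a family of transcription factors that switch on inflammatory and survival genes and their own inhibitors. Of 16 tested, 11 rose and none fell, with a median log2 change of 1.11. Bcl3, an inhibitor-like coactivator, was at 49.6 CPM in the untreated library, 416 CPM with IL-2 and 369.7 CPM with IL-15 (log2 change 2.99 ± 0.38), and Birc3, which blocks cell death, at 49.3 CPM untreated, 233 CPM with IL-2 and 285 CPM with IL-15 (log2 change 2.40 ± 0.28). The feedback genes Nfkbiz (51.6 CPM untreated, 164 and 193 CPM) and Tnfaip3 (48.4 CPM untreated, 134 and 168 CPM) and the subunit gene Nfkb2 (143 CPM untreated, 399.7 and 389.6 CPM) rose. Of 27 immediate early genes, which respond within minutes to hours of a signal, 12 rose and 1 fell. Jun was at 28.4 CPM in the untreated library, 332 CPM with IL-2 and 459 CPM with IL-15 (log2 change 3.81 ± 0.46), the stress factor gene Atf3 at 3.36 CPM untreated, 128 CPM with IL-2 and 102 CPM with IL-15 (log2 change 5.10 ± 0.40) and Cd69, which keeps activated T cells in lymphoid tissue, at 29.5 CPM untreated, 423 CPM with IL-2 and 873 CPM with IL-15 (log2 change 4.48 ± 0.57). Fos also rose (36.3 CPM untreated, 84.2 and 70.6 CPM). Egr1, a target of the T cell receptor pathway, was at 94.5 CPM untreated, 77.3 CPM with IL-2 and 103 CPM with IL-15 and did not pass (log2 change -0.07 ± 0.29). Nr4a1, another such target, rose (25.8 CPM untreated, 77.6 and 78.3 CPM). The 1 that fell, Dusp6, an ERK phosphatase gene, was at 106 CPM untreated, 25.5 CPM with IL-2 and 29.1 CPM with IL-15. Without the IL-15 library 8 of the 27 rose.

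Of 17 tested BCL-2 family genes, which decide between survival and death of a cell, 8 rose and none fell. They include protective and death-promoting members. Bcl2 was at 210.0 CPM in the untreated library, 689 CPM with IL-2 and 580.1 CPM with IL-15 (log2 change 1.61 ± 0.45, adjusted p = 0.029), a call lost without the IL-2 library and with DESeq2 (adjusted p = 0.11 and 0.092). Pmaip1, which encodes the death promoter NOXA, was at 3.87 CPM untreated, 27.1 CPM with IL-2 and 24.9 CPM with IL-15 (log2 change 2.75 ± 0.61), and Bcl2l11, which encodes the death promoter BIM, rose (44.3 CPM untreated, 86.7 and 116 CPM). The 3 near-identical genes Bcl2a1a, Bcl2a1b and Bcl2a1d also rose, and their separate values are uncertain because reads cannot be assigned between such copies with confidence. Costimulatory and inhibitory receptor genes went both ways, 5 up and 4 down of 17. Tnfrsf9, which encodes the costimulator 4-1BB, was at 11.5 CPM in the untreated library, 67.6 CPM with IL-2 and 110.2 CPM with IL-15 (adjusted p = 0.0075), and Tnfrsf18, which encodes GITR, at 40.5 CPM untreated, 235 CPM with IL-2 and 263 CPM with IL-15 (log2 change 2.62 ± 0.35). Pdcd1, which encodes the inhibitory receptor PD-1, rose from 1.84 CPM to 14.1 and 16.8 CPM. Cd5, a brake on T cell receptor signals, fell from 149 CPM to 20.8 and 14.8 CPM (log2 change -3.06 ± 0.25, adjusted p = 3.2e-05). Cd160, a coreceptor of T and natural killer cells, fell as well (17.5 CPM untreated, 2.91 and 2.22 CPM).

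Transcription factors that set effector or memory fate were divided, 5 up and 5 down of 23. Eomes, a driver of killer and memory function, was at 103 CPM in the untreated library, 499 CPM with IL-2 and 683 CPM with IL-15 (log2 change 2.52 ± 0.31, adjusted p = 0.00025). Tbx21, which encodes T-bet, the driver of interferon gamma production, was at 122 CPM untreated, 235 CPM with IL-2 and 207 CPM with IL-15 (log2 change 0.86 ± 0.25, adjusted p = 0.035). The call of Tbx21 was lost without IL-15 at 4 h (adjusted p = 0.16) and without the IL-2 or the IL-15 library at 500 nM and 24 h (adjusted p = 0.064 and 0.066). Irf4, which supports effector expansion, rose from 7.78 CPM to 92.3 and 114 CPM. In the other direction, Tcf7, which encodes TCF-1, the factor of naive and memory T cells, was at 1912 CPM in the untreated library, 318 CPM with IL-2 and 319.9 CPM with IL-15 (log2 change -2.58 ± 0.24, adjusted p = 4.9e-05). Id3, another memory-associated factor, fell (54.3 CPM untreated, 18.4 and 12.3 CPM), and so did Foxo1 (295 CPM untreated, 116 and 112 CPM).

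Of 22 genes of quiescence and lymphoid homing, 10 fell and 2 rose, against 8.47% and 7.92% of all tested genes, with a median log2 change of -0.62. S1pr1, the receptor that lets T cells leave lymphoid organs, was at 1073 CPM in the untreated library, 511 CPM with IL-2 and 405 CPM with IL-15 (log2 change -1.23 ± 0.25, adjusted p = 0.0055). Cdkn1b, which encodes the cell cycle inhibitor p27, was at 24.2 CPM untreated, 5.06 CPM with IL-2 and 3.15 CPM with IL-15 (log2 change -2.59 ± 0.49), Itgae, an integrin chain, at 81.2 CPM untreated, 29.5 CPM with IL-2 and 25.03 CPM with IL-15 and Rasgrp2, an activator of the GTPase RAP1, at 187 CPM untreated, 41.3 CPM with IL-2 and 29.5 CPM with IL-15. Klf2, which turns on S1pr1, was at 242 CPM untreated, 152 CPM with IL-2 and 162 CPM with IL-15 and did not pass (log2 change -0.63 ± 0.20, adjusted p = 0.054), though it passed with DESeq2 and limma-voom (adjusted p = 0.012 and 0.046). Slfn2, a quiescence gene that also answers to interferon, was among the risen ones (121 CPM untreated, 346 and 595 CPM). Without the IL-15 library 6 of the 22 fell and 1 rose, and the call of S1pr1 was lost (adjusted p = 0.059). Of 17 PI3K brake and FOXO target genes 5 fell and 1 rose (3 and 0 without the IL-15 library). Sesn1, a stress gene driven by FOXO factors, was at 262 CPM in the untreated library, 92.7 CPM with IL-2 and 71.1 CPM with IL-15 (log2 change -1.67 ± 0.26), and Pik3ip1, an inhibitor of PI3K, at 180.1 CPM untreated, 101 CPM with IL-2 and 88.5 CPM with IL-15 (log2 change -0.93 ± 0.25). Some of these genes are counted in both lists. Of 14 T cell identity genes 5 fell and 1 rose. Lat, the adaptor of the T cell receptor, was at 1337 CPM untreated, 488 CPM with IL-2 and 323 CPM with IL-15 (log2 change -1.73 ± 0.24), Cd3g at 500.2 CPM untreated, 212 CPM with IL-2 and 178 CPM with IL-15 and Zap70 at 692 CPM untreated, 358 CPM with IL-2 and 342 CPM with IL-15. The sum over the list was 7940.1 CPM untreated, 5318 CPM with IL-2 and 5849.7 CPM with IL-15.

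Genes for amino acid supply and tRNA charging rose in part. Many of them are targets of ATF4, the factor that answers to amino acid shortage. Of 27 tested, 16 rose and none fell, with a median log2 change of 1.73. Asns, asparagine synthetase, was at 1.26 CPM in the untreated library, 59.3 CPM with IL-2 and 51.4 CPM with IL-15 (log2 change 5.46 ± 0.69, adjusted p = 0.00030), and Chac1, which breaks down glutathione, at 1.55 CPM untreated, 34.9 CPM with IL-2 and 24.6 CPM with IL-15 (log2 change 4.25 ± 0.64). Trib3, a feedback inhibitor, was at 8.88 CPM untreated, 123 CPM with IL-2 and 86.1 CPM with IL-15 and the tRNA charging enzyme gene Aars at 37.3 CPM untreated, 253 CPM with IL-2 and 254 CPM with IL-15. Wars, a tRNA charging enzyme gene that also answers to interferon, rose (70.2 CPM untreated, 374 and 549 CPM). Untreated was the lowest of the 3 libraries for each of these genes, as the rule for a rise requires. Translation initiation factor genes showed 5 rises and 1 fall among 17, with Eif2s2 at 45.2 CPM untreated, 207 CPM with IL-2 and 239 CPM with IL-15 and Eif5a at 251 CPM untreated, 711 CPM with IL-2 and 809.8 CPM with IL-15. Among 22 nucleotide, one-carbon and polyamine genes 4 rose and 3 fell. When the IL-15 library was left out 2 rose and 1 fell, without any other 500 nM library 1 fell, and with cytokine by dose and cytokine by time terms 7 rose and 2 fell. Odc1, the first enzyme of polyamine synthesis, was at 9.62 CPM untreated, 46.8 CPM with IL-2 and 55.6 CPM with IL-15 (log2 change 2.42 ± 0.42), and the mitochondrial folate enzyme gene Mthfd2 at 145 CPM untreated, 615 CPM with IL-2 and 419.5 CPM with IL-15 (log2 change 1.81 ± 0.38). Of 24 cholesterol and fatty acid synthesis genes 5 rose and 2 fell. Sqle, a rate-setting enzyme of sterol synthesis, was at 13.01 CPM untreated, 46.2 CPM with IL-2 and 45.4 CPM with IL-15 and Scd2, a desaturase gene, at 63.3 CPM untreated, 18.6 CPM with IL-2 and 17.5 CPM with IL-15. Without the IL-15 library 2 of the 24 rose and 1 fell.

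Genes of glucose use, DNA replication and G1 control gave calls in both directions at 4 h. Over all tested genes 7.92% rose and 8.47% fell. Of 21 glucose uptake and glycolysis genes, 2 rose (Hk2 and Slc2a1), close to the share of 7.92%, and 4 fell, with a median of -0.23. The falls numbered 1 without the IL-15 library, and with limma-voom Hk2 lost its call (adjusted p = 0.092). Slc2a1, the glucose transporter GLUT1, was at 39.4 CPM in the untreated library, 84.4 CPM with IL-2 and 82.02 CPM with IL-15 (log2 change 1.08 ± 0.24), and Pdk1, which diverts pyruvate from mitochondria, fell (582 CPM untreated, 233 and 299 CPM). Of 20 mitosis genes 0 passed edgeR's test, 1 at an unadjusted p under 0.05, and 0 passed with DESeq2 or limma-voom (medians 0.18 for the list and 0.02 for all tested genes). Of 28 DNA replication genes 3 rose and 2 fell, close to the shares over all tested genes. Rfc3 was at 8.26 CPM untreated, 37.9 CPM with IL-2 and 76.8 CPM with IL-15. The thymidine kinase gene Tk1 was at 16.3 CPM untreated, 3.03 CPM with IL-2 and 6.13 CPM with IL-15. Tk1 lost its call without the IL-2 library and with limma-voom (adjusted p = 0.15 and 0.094), and the rises in this list numbered 1 without the IL-15 library and with limma-voom. Its falls numbered 6 with cytokine by dose and cytokine by time terms, 4 without either 1 nM, 24 h library, and 0 without the IL-2 library. G1 cyclins, kinases and inhibitors gave 3 rises and 5 falls among 18 (2 and 3 without the IL-15 library). The cell cycle inhibitor gene Cdkn1a, which encodes p21, was at 1.84 CPM in the untreated library, 62.5 CPM with IL-2 and 103 CPM with IL-15 (log2 change 5.50 ± 0.50, adjusted p = 4.8e-05) and Cdk6, a G1 kinase gene, at 3.58 CPM untreated, 28.1 CPM with IL-2 and 22.6 CPM with IL-15 (log2 change 2.82 ± 0.67). E2f2, which drives replication genes, was at 41.1 CPM untreated, 5.94 CPM with IL-2 and 9.75 CPM with IL-15 (log2 change -2.41 ± 0.33). Of 33 ribosome biogenesis genes 3 rose and none fell, the rises close to the background share of 7.92%. The list's median log2 change was 0.36 against 0.02 over all tested genes. With both cytokines 25 members lay above untreated and 3 below. At an unadjusted p under 0.05 with edgeR, 9 were higher and none lower. The rises numbered 0 without the IL-15 library, 1 without either 500 nM, 24 h library and 5 without either 1 nM, 24 h library.

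**Figure D5:**
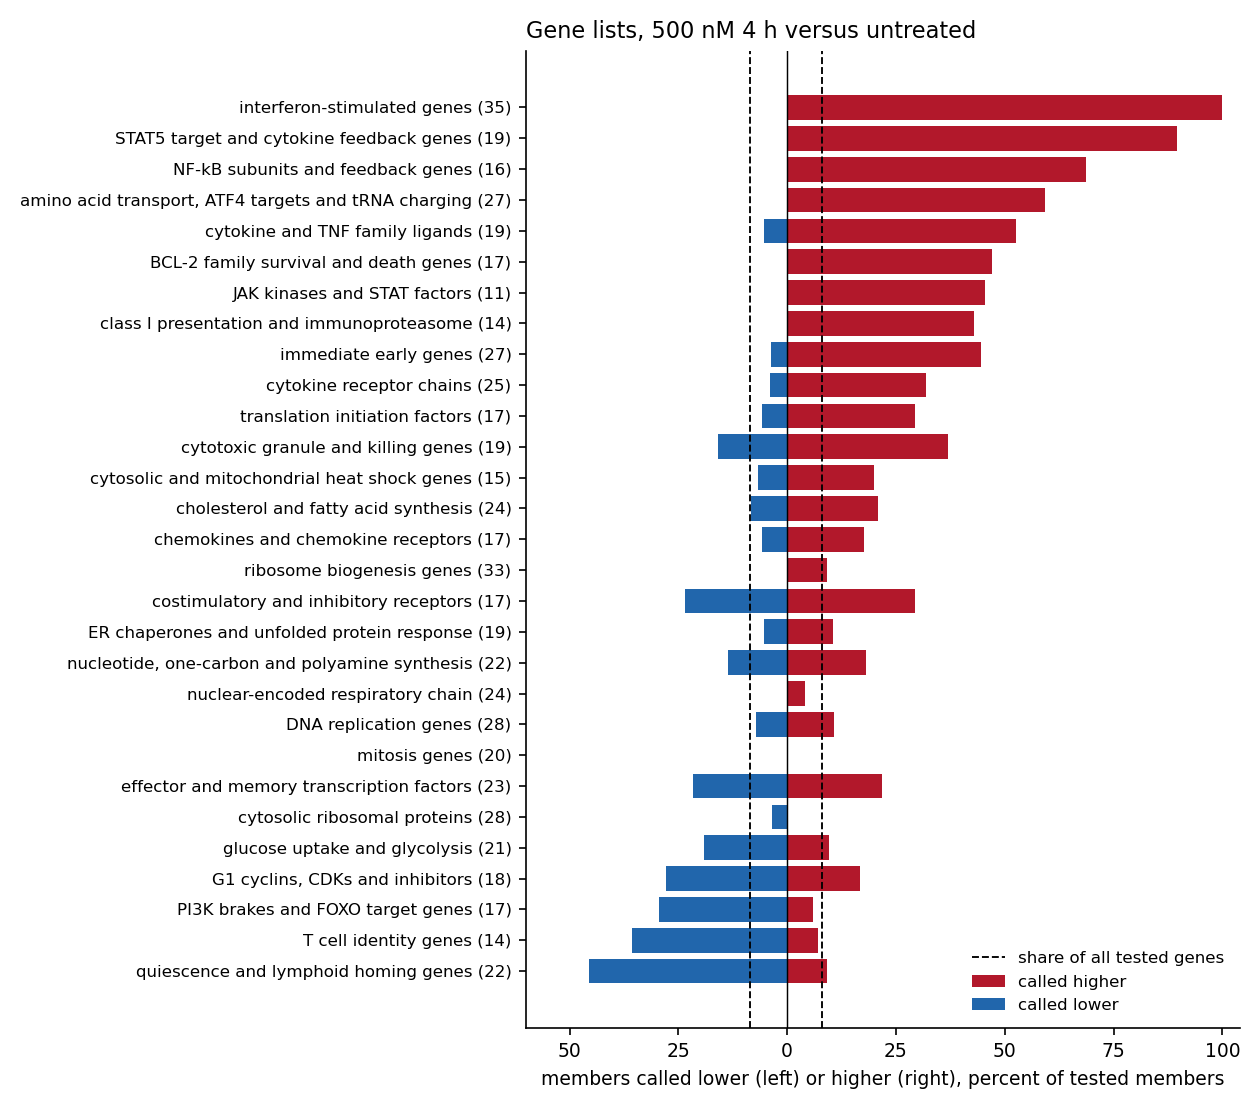
Share of each list's tested members that rose (red, right) or fell (blue, left), with the number tested in brackets; dashed lines mark the shares over all 13479 tested genes, 7.92% higher and 8.47% lower. Interferon-stimulated genes reach 100% and STAT5 targets 17 of 19, while the mitosis list has no bar in either direction. The lists were chosen with earlier results of these data known.

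The genes that rose most by the rule applied, on the smaller of the 2 cytokine changes, were Lif, Gzmc, Cxcl2, Irg1, Selp, Cxcl10, Cxcl11, Sult2b1, Iigp1, Slc7a3, Dhh, Gzmb, Il1r2, Ifng and Pdcd1lg2. Several were at 0 counts in the untreated library. Cxcl2, which attracts neutrophils, had 0, 413 and 336 counts, at least 129-fold and 101-fold higher. Irg1, the enzyme that makes itaconate and is best known from macrophages, had 0, 238 and 643 counts, at least 74.5-fold and 194-fold higher. Il1r2, a decoy receptor for interleukin-1, had 1, 259 and 224 counts, a ratio of 243 (95% counting interval 43.2 to 9637) with IL-2. These rises stand beside a summed macrophage and neutrophil marker level of 233 and 164 CPM against 2148 CPM untreated, and the part of such cells in them was not tested. Cxcl11, another interferon-dependent chemokine, had 1, 380 and 448 counts. Selp, P-selectin, had 0, 223 and 225 counts, and the amino acid transporter gene Slc7a3 had 0, 131 and 176. With limma-voom 6 of the 15 calls were lost (Cxcl11, Gzmc, Ifng, Iigp1, Irg1 and Selp, adjusted p = 0.064 to 0.17), and Dhh lost its call without either treated library. Of the 1068 risen genes 30 had 0 counts untreated and 50 had 3 or fewer.

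The 15 genes that fell most by the same rule were low in the untreated library, between 53 and 255 counts, and 13 of them had 0 counts in both 500 nM libraries. Scamp5, a vesicle membrane protein gene, had 255 counts (8.23 CPM) untreated and 0 with either cytokine, at least 90.6-fold lower with IL-2 and at least 94.1-fold lower with IL-15. Tlr11, an innate receptor gene, had 180 counts untreated and 0 in both, and Aifm2, which encodes the ferroptosis suppressor FSP1, 171 counts and 0 in both. The others were Dchs1, Shroom3, Srgap3, Dab2ip, Efcab4a, Cib2, Acot1, Sema6a, Zfyve28, Cbln1, Ptger3 and Pnck. Their adjusted p-values lay between 0.0064 and 0.037. Each rests on 1 untreated library made from 2.5 ng of RNA by repeated PCR, in which a low count has no replicate. Of the 15 calls, 14 were lost without the IL-15 library and without the IL-2 library 12, while the counts in the remaining treated library were 0 to 2. With DESeq2 and all libraries kept, 5 were lost, those of Scamp5, Tlr11, Dchs1, Sema6a and Ptger3 (adjusted p = 0.087 to 0.32).

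Whether the change from untreated depended on dose was tested as 500 nM against 1 nM at 4 h, where the untreated library drops out. In that test 731 genes were higher at 500 nM (5.42%) and 624 lower (4.63%). STAT5 targets were higher for 14 of 19 and lower for none. Lif was at 5.28 and 4.45 CPM with 1 nM IL-2 and IL-15 (log2 difference between doses 6.81 ± 0.52, adjusted p = 2.7e-05), Gzmb at 13.3 and 18.3 CPM (difference 6.23 ± 0.83) and Lta at 82.4 and 121 CPM (difference 4.13 ± 0.51). The 1 nM libraries lay far below the 500 nM ones for these genes. Il2ra, at 12.7 and 14.7 CPM with 1 nM, did not pass (difference 1.59 ± 0.61, adjusted p = 0.13). Of 35 interferon-stimulated genes 35 were higher at 500 nM than at 1 nM, by a median of 2.74 on the log2 scale. Higher too were 11 of 14 class I genes, 19 of 27 amino acid genes and 11 of 33 ribosome biogenesis genes. Ifng was at 1.91 and 0.830 CPM with 1 nM, against 1.001 CPM untreated. Of 22 quiescence and homing genes 13 were lower at 500 nM and none higher. Tcf7 was at 1988 and 1473 CPM with 1 nM (difference -2.44 ± 0.21) and S1pr1 at 1275 and 1107 CPM (difference -1.38 ± 0.21). Il7r, at 540.0 and 319 CPM with 1 nM, was lower at 500 nM (difference -2.07 ± 0.28).

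In some groups with members that had risen from untreated, most members did not pass the test between doses. Of 16 NF-kB genes 3 were higher and 1 lower at 500 nM than at 1 nM, with a median log2 difference of -0.07. Of 27 immediate early genes 6 were higher and 3 lower (median 0.41). Of 22 nucleotide, one-carbon and polyamine genes 4 were higher and none lower (median 0.63). All tested genes had a median of -0.02, with 5.42% higher and 4.63% lower. At an unadjusted p under 0.05 with edgeR, 5 NF-kB genes were higher and 3 lower. By the same measure 10 immediate early genes were higher and 4 lower, and 13 nucleotide, one-carbon and polyamine genes were higher and none lower. Nfkb2 was at 398 and 366 CPM with 1 nM, with a dose difference of 0.05 ± 0.18 (adjusted p = 0.92), and Tnfaip3 at 304 and 205 CPM, with a difference of -0.74 ± 0.22 (adjusted p = 0.050). Fosl2 and Nr4a1 had dose differences of 0.03 ± 0.27 and -0.14 ± 0.20, and Odc1 of 0.06 ± 0.30. A p above the threshold does not show that doses acted alike. Of the 14 tested macrophage and neutrophil markers 0 passed edgeR's test between doses, 5 were lower at 500 nM at an unadjusted p under 0.05, and 0 passed with DESeq2 or limma-voom. C1qc stood at 75.3 and 78.3 CPM at 1 nM (dose difference -0.64 ± 0.28). Against the same untreated library, 371 genes were higher at 1 nM for 4 h (2.75%) and 479 lower (3.55%). Since both doses are read against that 1 library, their changes are given side by side and not set against each other. NF-kB genes gave 8 rises of 16 at 1 nM and 11 at 500 nM, STAT5 targets 4 of 19 and 17, interferon-stimulated genes 8 of 35 and 35, macrophage and neutrophil markers 6 falls of 14 and 8, and quiescence and homing genes 3 falls of 22 and 10.

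The state at 24 h with 500 nM was compared with that at 4 h, again without the untreated library. At 24 h 1797 genes were higher (13.3%) and 1739 lower (12.9%). Of the 35 interferon-stimulated genes 27 were lower at 24 h and none higher. Cxcl10 was at 44.6 and 45.6 CPM at 24 h (log2 difference between times -4.38 ± 0.68, adjusted p = 0.00067) and Rsad2 at 37.5 and 60.1 CPM (difference -4.37 ± 0.33). NF-kB genes were lower for 15 of 16 and immediate early genes for 17 of 27, with Fos at 11.5 and 8.49 CPM and Jun at 184 and 147 CPM. These genes were thus higher at 4 h than at 24 h of the same dose. Mitosis genes were higher at 24 h for 20 of 20, DNA replication genes for 27 of 28, ribosome biogenesis genes for 27 of 33 and glycolysis genes for 13 of 21. Ccna2, cyclin A2, went from 27.1 and 28.97 CPM at 4 h to 339 and 319.6 CPM, and Aurkb, a mitotic kinase gene, from 14.6 and 15.1 to 202 and 218 CPM. Of the STAT5 targets 1 was higher and 4 were lower, of 19. Lif was at 573 and 469 CPM at 24 h, with a time difference of -0.06 ± 0.40 (adjusted p = 0.95), and Gzmb at 3683 and 3489.7 CPM (difference 1.56 ± 0.67, adjusted p = 0.11). Tcf7 was at 331 and 352 CPM, and S1pr1 was lower at 24 h than at 4 h, at 156 and 208 CPM (difference -1.34 ± 0.21).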

How the data were processed

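RNA of CD8+ T cells was sequenced in 9 libraries, 1 per condition, each from 3 pooled samples and 2.5 ng of RNA, with 12, 9 and 17 cycles of PCR, per the labels' protocols. Reads were processed with CASAVA 1.8 and Bowtie 0.12.4 on mm8, per the submitters' processing notes. No counting tool, strand setting or rule for reads with several positions is given in the sources used here. Tables deposited by the authors hold whole-number counts (total tags) for 24373 RefSeq transcripts, per the file headers. The authors' RPKM column was used only to check those counts.

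One transcript per symbol (20418) was kept, the one with the highest mean count. edgeR 4.0.16 (R 4.3.3) used TMM scaling, its default filter (minimum count 10, minimum total 15) and the quasi-likelihood test with 5 condition levels and a cytokine term, leaving 3 residual degrees of freedom, with Benjamini-Hochberg adjustment over all genes tested. A call needed an adjusted p of at most 0.05 and the same direction in both cytokine pairs. Standard errors were derived from the F statistic and are approximate. The script was tested on simulated data. No labelled replicate shows separate cultures or animals, so p-values measure only the spread between IL-2 and IL-15 libraries that the cytokine term leaves. The fold rule needed 2-fold with both cytokines, an offset of 1 count and at least 20 counts in the higher library. A fold against 0 counts is a bound against a floor of 3 counts per library, and a ratio against 1 to 3 counts has an exact 95% binomial interval. Intervals and floors cover counting error only, and reads from PCR are not independent molecules.

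The members and the 38 gene lists (680 of 682 entries matched by symbol) were chosen with earlier results of these data known. Named genes were, per direction, the 15 called genes with the largest smaller-of-the-2-cytokines change and at least 50 counts, up to 6 members of each list by that measure or by counts, up to 5 opposite changes of each kind, and a set of pathway genes. Il2, Il4ra, Il6ra, Il16, Ccnd3, Gzmm, Dusp6, Lef1, Mpo, S100a8, S100a9 and A530054K11Rik fall outside that rule and were chosen after their values were seen. Alternatives were other scalings and filters, DESeq2 1.42.0, limma-voom (limma 3.58.1), other models, sums over transcripts and leaving out each library; newer edgeR deviances and list counts under each setting were added after seeing the data. Some genes are not reported here. Promoters came from RefSeq tables of GRCm38.p6, matched by symbol for 9226 of the tested genes.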

Additional observations from a re-analysis of the deposited data

Results flagged for a closer look

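IL-2 and IL-15 at 500 nM moved 15 genes at least 2-fold in opposite directions from the untreated library. In 11 of them the level was higher with IL-2 and lower with IL-15 than untreated, and in 4 the reverse. The 5 with the widest gap between the cytokines' log2 changes, among genes with a standard symbol, rest on few counts. Aldh1a2, which makes retinoic acid, had 22 counts untreated, 105 with IL-2 and 0 with IL-15 (gap 6.78). Pou5f2 had 32 counts untreated, 76 with IL-2 and 0 with IL-15 (gap 6.32), and Utp14b had 38 counts untreated, 157 with IL-2 and 7 with IL-15 (gap 4.36). Phactr2 had 30 counts untreated, 74 with IL-2 and 4 with IL-15 (gap 3.96), and Dock3 had 22 counts untreated, 52 with IL-2 and 4 with IL-15 (gap 3.46). These 5 are all of the kind higher with IL-2. The fifth widest gap of the 15, ahead of Dock3, was that of A530054K11Rik, which went the reverse way, at 1.19 CPM untreated, 0.333 CPM with IL-2 and 4.35 CPM with IL-15 (gap 3.59). With 1 library per cytokine the difference was not tested.

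At 4 h, 7 genes were called in opposite directions from the untreated library at the 2 doses and also passed the test between doses, 6 of them higher than untreated at 500 nM and 1 lower. The 5 with the widest difference are given. Dna2, a replication nuclease gene, stood at 2.68 CPM untreated, 0.646 and 0.226 CPM with 1 nM IL-2 and IL-15, and 16.4 and 23.3 CPM with 500 nM, a log2 difference between doses of 5.64 (edgeR adjusted p = 0.00024). Il12rb1 stood at 21.9 CPM untreated, 6.94 and 3.70 CPM with 1 nM IL-2 and IL-15, and 84.3 and 112 CPM with 500 nM, a difference of 4.31 (adjusted p = 4.7e-05). F2rl2, a protease-activated receptor gene, stood at 2.55 CPM untreated, 0.727 and 0.453 CPM with 1 nM IL-2 and IL-15, and 12.3 and 6.74 CPM with 500 nM, a difference of 3.99 (adjusted p = 0.00025). Eomes stood at 103 CPM untreated, 40.4 and 35.1 CPM with 1 nM IL-2 and IL-15, and 499 and 683 CPM with 500 nM, a difference of 3.97 (adjusted p = 1.1e-05). Tbx21 stood at 122 CPM untreated, 29.5 and 27.02 CPM with 1 nM IL-2 and IL-15, and 235 and 207 CPM with 500 nM, a difference of 2.97 (adjusted p = 2.0e-05). Each of these 5 was higher than untreated at 500 nM and lower at 1 nM, with both cytokines as a call requires. Against untreated at 500 nM, the calls of Dna2, F2rl2 and Tbx21 were lost without the IL-15 library (adjusted p = 0.095, 0.080 and 0.16) and that of F2rl2 also without the IL-2 library (adjusted p = 0.079). Each value against untreated rests on the same 1 library.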

How the results depend on the processing

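For 500 nM at 4 h against untreated (2209 genes, 1068 higher and 1141 lower), the total ranged from 2042 (only the libraries of the comparison) to 2722 (DESeq2) over the settings that changed scaling, filter, tool, model or transcript choice, and the called genes in the text reversed under none of the 19 settings. Leaving out 1 library gave 1070 to 2397 genes in all, with 529 to 1180 higher and 541 to 1225 lower; the lowest values came without the IL-15, 500 nM, 4 h library, where an arm of the comparison has 1 library against 1, and the totals were 1746 and 1750 without the IL-2 and the IL-15 library at 500 nM and 24 h. Of 148 called genes in the text 91 kept the call in every setting that gave a value and 57 lost it in 1 or more: 14 with limma-voom, 6 with DESeq2, 46 without the IL-15 and 25 without the IL-2 library. For 500 nM against 1 nM (1355 genes), leaving out 1 library gave 567 to 1561, with 567 without IL-15 at 500 nM, 690 without IL-2 at 1 nM and 831 without IL-15 at 1 nM. For 24 h against 4 h (3536 genes) it gave 1565 to 3742, with 1565 and 1586 without the IL-2 and the IL-15 library at 24 h and 2199 without IL-15 at 4 h. For 1 nM against untreated (850 genes, 371 higher and 479 lower) it gave 283 to 1010, with 283 and 476 without the IL-2 and the IL-15 library, and DESeq2 gave 1349. limma-voom gave 227 higher and 535 lower there, and 821 higher and 1247 lower for 500 nM at 4 h against untreated. With newer edgeR deviances the latter were 1026 and 1295. A lost library leaves fewer samples; the cause of the DESeq2 and limma-voom counts was not tested. The size rule (2778 genes at 2-fold with both cytokines) gave 4692 at 1.5-fold, 1546 at 3-fold and 4240 with IL-15 alone. Of the 33 list counts of 3 or more called members, 14 moved by over 1.5 times without the IL-15 library and at most 2 under any other setting. Counts below 3 moved as well: the falls of ribosomal protein genes went from 1 to 5 and of respiratory chain genes from 0 to 4 without either 1 nM, 4 h library. No paired analysis was possible because the labels give each condition 1 library and no replicate number. Depth limits genes near 0 counts, where a bound stands in place of a fold.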

Other observations

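Chaperone genes not described above gave calls in both directions at 4 h. Over all tested genes 7.92% rose and 8.47% fell. Of 19 endoplasmic reticulum chaperone and unfolded protein response genes 2 rose and 1 fell, close to those shares. Hspa5, the main chaperone of the endoplasmic reticulum, was at 289.8 CPM untreated, 699 CPM with IL-2 and 977 CPM with IL-15 (log2 change 1.54 ± 0.28, edgeR adjusted p = 0.0025), and Sdf2l1 fell (68.1 CPM untreated, 18.1 and 22.1 CPM), a call lost without the IL-2 library (adjusted p = 0.085). Of 15 cytosolic and mitochondrial heat shock genes 3 rose and 1 fell, the fall close to the share of 8.47%. Hsp90aa1, an inducible HSP90 gene, was at 140.4 CPM untreated, 308 CPM with IL-2 and 440.0 CPM with IL-15 (log2 change 1.44 ± 0.34), while the mitochondrial chaperone gene Hspe1 fell (293 CPM untreated, 185 and 167 CPM). These 4 calls were all lost without the IL-15 library. Hsp90aa1, Hspa8 and Hspe1 then had adjusted p-values of 0.077, 0.27 and 0.15. The call of Hspe1 was also lost without the IL-2 library (adjusted p = 0.077), and those of Hspe1 and Hspa8 without either 500 nM, 24 h library and with only the libraries of the comparison.

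Of 28 cytosolic ribosomal protein genes 1 fell, Rplp1 (8167 CPM untreated, 5474 and 5156 CPM), and 0 rose with edgeR (1 at an unadjusted p under 0.05, 0 with DESeq2 or limma-voom), with a median log2 change of -0.09. DESeq2 called 2 falls, and 5 were called without either 1 nM, 4 h library. Rplp1 lost its call in 9 of 19 settings, among them each of the 4 that left out a 500 nM library (adjusted p = 0.094 to 0.16). Of 24 nuclear-encoded respiratory chain genes 1 rose, Cycs, which encodes cytochrome c (20.6 CPM untreated, 41.4 and 46.6 CPM), with a median of -0.02. Cycs lost its call in 7 of 19 settings, among them limma-voom and leaving out the IL-15 library (adjusted p = 0.061 and 0.23). DESeq2 called 2 rises and 3 falls in this list, and 4 falls were called without either 1 nM, 4 h library. Eif4ebp2, a repressor of cap-dependent translation, was the 1 translation initiation gene of 17 that fell (41.3 CPM untreated, 11.9 and 10.9 CPM). Ikzf4, a transcription factor gene known from regulatory T cells, was the 1 of 4 CD4+ T cell markers that rose (0.969 CPM untreated, 20.4 and 16.4 CPM); Cd4 itself was at 5.62 CPM untreated, 2.85 CPM with IL-2 and 1.43 CPM with IL-15.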
